A study of Caenorhabditis elegans with 66 samples.

Results

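The 100 piRNAs described here are the most abundant ones with a larval bias in whole Caenorhabditis elegans, out of 17114 piRNAs in a table of small RNA counts. For the choice, each count was divided by the sum of the piRNA counts of its library and scaled to CPM, counts per 1000000 piRNA counts. A piRNA qualified when its mean CPM over the 6 wild-type libraries of sets A and B at 48 h was at least 4 times its mean over the 6 at 72 h. Of the 5743 that qualified, the 100 with the highest mean at 48 h were taken, and 21ur-6881 and 21ur-669 were left out beforehand. The members were thus chosen by their CPM in wild type of sets A and B, and the higher level at 48 h there is not a result. The mutants of sets A and B are compared with wild-type libraries that took part in that choice.

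Animals were gravid adults at 72 h and L4 larvae at 48 h. Set A holds snpc-1.2(-), snpc-1.3(-) and wild type (N2), and set B holds the mutant that lacks both snpc-1.2 and snpc-1.3, prg-1(-), mut-16(-), hrde-1(-) and wild type. Of set C, wild type was used. Each genotype and age of a set has 3 libraries, which makes 54 libraries in 18 groups. The labels give the mutants as minus alleles without allele names, with titles that call those of the snpc genes null, and do not say whether the libraries came from separate cultures, so the p-values measure only the spread between these libraries. The file headers mark the set B wild-type library 3 at 72 h as resequenced.

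In this nematode, piRNAs are also called 21U-RNAs, because they are short and nearly always begin with a uridine, which the sequences show as T. Each is transcribed from its own small promoter, most of them in clusters on chromosome IV, and is bound by PRG-1, the Argonaute protein that uses piRNAs to find foreign or unwanted transcripts in the germ line. SNPC-1.2 and SNPC-1.3 are related to SNAPC1, a subunit of the complex that starts transcription of small nuclear RNA genes. SNPC-1.3 is known to be needed for piRNAs of the male germ line, and hermaphrodites make sperm as L4 larvae and oocytes as adults. MUT-16 organises the amplification of secondary small RNAs, and HRDE-1 is a nuclear Argonaute, and both act after a piRNA has found its target.

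The 10 most abundant members are shown with their first base in capitals, since many of the values below are theirs.
21ur-3822: Taataaatcttttggaccagt
21ur-7999: Ttctgtgaaatttcgattatc
21ur-5897: Taggaaagtatgtaggaaagt
21ur-1660: Tatcacagacttagcagtact
21ur-6053: Tcgacctgttgttcaatcgac
21ur-7034: Tttgatcaattttctagtagt
21ur-7073: Tagaacgtttggaaaattttt
21ur-52: Tgggaatggaaaaatacgatc
21ur-1413: Ttgaatctgattcaggctgtt
21ur-1258: Tagacttgagttagaacggtt

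All 100 members are 21 bases long and 97 begin with T. Of the 3 that do not, 21ur-4621, 21ur-2555 and 21ur-1621, each overlaps a second member that starts 1 base later, with T, and whose name in the files marks it as an addition to the annotation. These pairs are shown because they are not independent measurements, with the 20 shared bases in capitals.
21ur-4621: cTTGACTGTCGAAGACCATTT
novel_21ur-1358: TTGACTGTCGAAGACCATTTc
21ur-2555: aTAGACTGATCTGACTGTAAG
novel_21ur-1319: TAGACTGATCTGACTGTAAGa
21ur-1621: aTACGAACTCGAGCGCTTTTT
novel_21ur-1420: TACGAACTCGAGCGCTTTTTg

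The counts of 21ur-1621 and novel_21ur-1420 were equal in 54 of 54 libraries, those of 21ur-2555 and novel_21ur-1319 in 48, and those of 21ur-4621 and novel_21ur-1358 in 32. Another overlapping pair, 21ur-1292 and novel_21ur-1322, had equal counts in 41 libraries. 21ur-4471 and novel_21ur-1193 have the same sequence at different places on chromosome IV and equal counts in 30 libraries. The 100 members thus hold 95 distinct signals. Leaving out the 5 repeats, an alternative chosen after the data were seen, moved none of the 24 counts of called members by over 1.5 times. It can lower a count by at most 5, and the counts were 0, 1 or at least 36. This outcome was therefore fixed by the counts and is no test of what the repeats do. 21ur-2955 and 21ur-7968 differ at 2 positions, shown in capitals, and their counts were equal in 1 library only.
21ur-2955: tcatatcGCttttactgtatt
21ur-7968: tcatatcCAttttactgtatt

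Every member lies on chromosome IV in the WBcel235 build, against 89.1% of the 8512 piRNAs tested. There are 93 members in the large piRNA cluster, which holds 70.2% of the piRNAs tested, and 5 in the small cluster to its left, which holds 15.5%. The strands were nearly even, with 52 members on the plus strand and 48 on the minus strand. No annotated gene covers 64 members, 31 lie in introns and 5 in exons, with 19 on the strand of the gene and 17 antisense to it. The most abundant member, 21ur-3822, lies outside genes at IV:15631002-15631022 on the minus strand. The next, 21ur-7999, lies in an intron of Y105C5A.15 and antisense to it, at IV:15705221-15705241 on the minus strand. The median distance from a member to its nearest fellow was 11522 bases, and 25 members had one within 5000 bases.

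The rule did not use the letters of the sequences. The members' A and T content was 64.8%, close to the 65.2% of all piRNAs tested. Their last base was T in 55% and A in 9%, against 39.6% and 24.2% of the piRNAs tested, and position 19 was A in 50% against 34.7%. These positions were picked after all 21 had been seen. The 100 most abundant other piRNAs at 48 h, which missed the age limit, had T last in 51%, A last in 9% and A at position 19 in 51%, so these letters are not particular to the members.

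The members nearest to the age limit were 21ur-5227, 21ur-3302 and 21ur-2034, with 48 h means 4.24, 4.28 and 4.37 times those at 72 h. Just outside were 21ur-3945, 21ur-4467 and 21ur-453, at 3.99, 3.98 and 3.94 times. By abundance, 21ur-8416 was the last taken with 763.5 CPM at 48 h, and 21ur-92 with 744 CPM and 21ur-3629 with 737 CPM followed.

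The total of piRNA counts ranged from 3167 to 2276260 a library. The totals were smallest in prg-1 and in the mutant that lacks both snpc genes, where members had a median of 3 to 19 counts summed over 3 libraries. In set C, the third wild-type library at 72 h had 9912 piRNA counts, against 740102 and 318641 in the other libraries of its group. The table lists piRNAs alone, so these totals are not library depths, and CPM shows a piRNA's part of the piRNA pool and not its amount in the animal. In whole animals, fewer germ cells of a kind and less RNA in each cannot be told apart. Fold changes come from edgeR with TMM scaling on the counts, as log2 of the first-named group over the second. Calls are those with an adjusted p (Benjamini-Hochberg) under 0.05, adjusted over all 8512 piRNAs tested. All 100 members were tested.

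As a share of the piRNA pool, the members were high in snpc-1.2 at both ages and low in snpc-1.3 at both ages. In set A they held 13.8% ± 0.58 of the piRNA counts in snpc-1.2 at 72 h, 0.582% ± 0.010 in snpc-1.3 at that age and 1.52% ± 0.41 in wild-type adults (SD, n = 3 each). At 48 h they held 16.3% ± 0.23 in snpc-1.2, 0.812% ± 0.043 in snpc-1.3 and, in larvae of wild type, 12.8% ± 1.5. The 3 libraries of snpc-1.2 at 72 h had 13.4 to 14.5%, above every wild-type library at 72 h, and 1 of them lay above every wild-type library at 48 h. The snpc-1.3 libraries at 48 h had 0.766 to 0.852%, below every wild-type library at 72 h.

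Set B gave 3.04% ± 0.021 in the mutant lacking both genes at 72 h, 1.33% ± 0.15 in prg-1, 1.73% ± 0.20 in mut-16, 1.52% ± 0.18 in hrde-1 and 1.65% ± 0.37 in wild type. At 48 h it gave 3.03% ± 0.20 in the mutant lacking both genes, 1.79% ± 0.24 in prg-1, 11.5% ± 0.60 in mut-16, 12.9% ± 0.94 in hrde-1 and 13.1% ± 1.2 in wild type. The mutant lacking both genes had nearly the same share at either age, between the levels of wild-type adults and wild-type larvae. In set C, which the rule did not use, wild type had 1.93% ± 0.91 at 72 h and 8.70% ± 1.1 at 48 h. The 72 h library with few counts had 2.98%, and the other 2 had 1.5% and 1.31%.

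**Figure D1:**
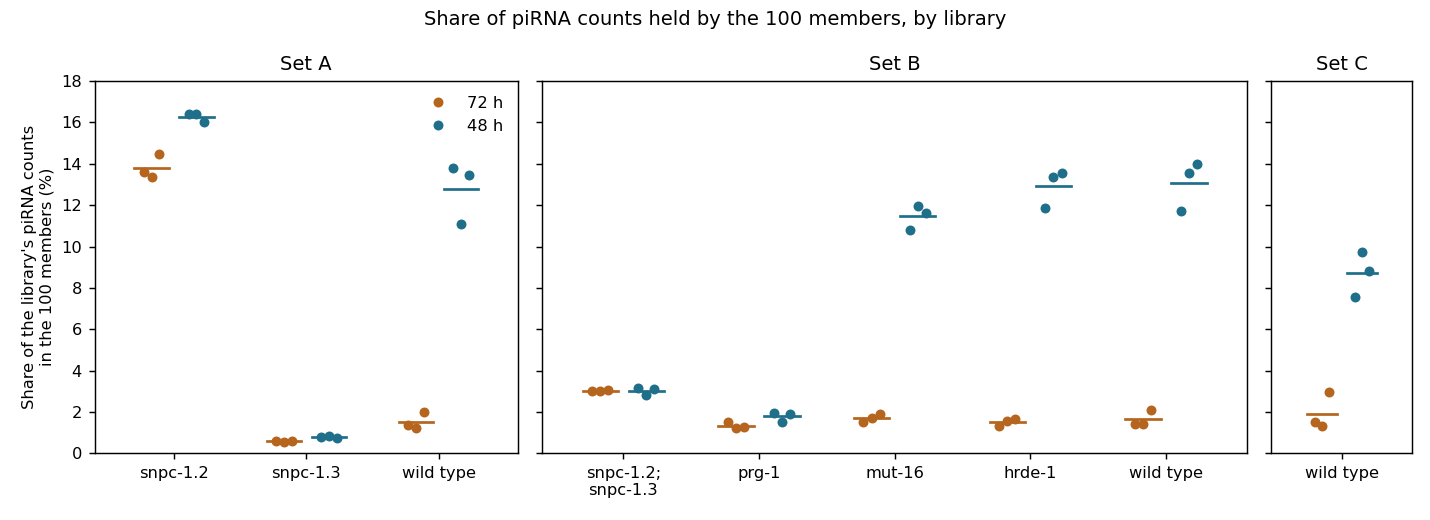
Share of each library's piRNA counts held by the 100 members (vertical axis, percent), by genotype and set, with 72 h left of 48 h. Points are libraries and lines are means of 3. The 3 snpc-1.2 libraries at 72 h (13.4 to 14.5%) lie far above wild type at 72 h in set A (1.21 to 1.99%), and the snpc-1.3 libraries lie under 1% at both ages.

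Set C asked whether the bias held in wild-type libraries that had no part in the choice. There, 98 of 100 members were lower at 72 h than at 48 h by edgeR and 0 were higher, against 25.6% of all piRNAs tested called lower. The median log2 fold change was -2.47 over the members and -0.02 over all piRNAs tested. Without replicate 3 at 72 h, 100 of 100 were called lower, and leaving out any 1 library gave 97 to 100. 21ur-3822 had 146, 182 and 303 CPM in the 72 h libraries and 1151, 1805 and 1670 CPM in the 48 h libraries. The ages did not overlap, and its log2 fold change was -3.14 (SE 0.38, edgeR adjusted p = 4.73e-10). The largest fall was that of 21ur-6420 (IV:16473712-16473732, minus strand, outside genes), with 24.3, 22.0 and 101 CPM at 72 h and 310, 944 and 641 CPM at 48 h, at a log2 change of -4.56 (SE 0.50, adjusted p by edgeR = 1.34e-11). Its 101 CPM in replicate 3 is 1 count. Without replicate 3 at 72 h, the log2 change of 21ur-3822 was -3.15 and that of 21ur-6420 was -4.66.

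The members did not keep their order of abundance in set C. Spearman's rho of their mean CPM at 48 h over the 100 members was 0.12 between set A and set C wild type and 0.26 between set B and set C wild type, against 0.92 between set A and set B. The median member had 545 CPM in set C, against 1138 CPM in set A and 1212 CPM in set B. 21ur-801 had a mean of 24.9 CPM in set C and 1876 CPM in sets A and B, and 21ur-903 had 24.4 CPM and 1197 CPM. In the other direction, 21ur-3377 had 4004 CPM in set C and 936 CPM in sets A and B. In all, 27 members were under 0.25 times their level in sets A and B, and 1 was over 4 times. Of the 4587 piRNAs tested with at least 20 CPM in sets A and B, 786 were under 0.25 times and 191 over 4 times. The members were chosen for a high level at 48 h in sets A and B, so a lower level in set C is in part given by the choice.

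The departure of set C from sets A and B ran with the last base of the piRNA. The ratio of set C to sets A and B at 48 h had a median of 0.29 over the 55 members that end in T, and 25 of the 27 members under 0.25 times are among these. It was 0.47 over the 9 ending in A, 0.82 over the 18 ending in C and 0.82 over the 18 ending in G. All piRNAs tested with at least 20 CPM in sets A and B had the same order, with medians of 0.45 for T, 0.74 for A, 1.17 for C and 1.36 for G, so the pattern is not particular to the members. The labels give 1 library protocol for all 3 sets, and the part of library preparation or sequencing in the difference was not tested.

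The comparison with wild type of the same set and age then asked what each mutation did to the members, first for snpc-1.3. In snpc-1.3 larvae at 48 h all 100 members were lower than in wild type and 0 were higher, against 38.7% of all piRNAs tested called lower. Their median log2 fold change was -3.65, and that of all piRNAs tested was 0.31. The members' counts summed to 4.37% of wild type, while all piRNA counts summed to 68.7%. Every library of snpc-1.3 lay below every library of wild type in CPM for each of the 100 members, against 43.3% of all piRNAs tested. These wild-type libraries helped to choose the members, by a high level at 48 h. With members chosen in set B alone, 100 of 100 were called lower, at a median of -3.61.

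21ur-3822 had 96.3, 88.6 and 44.9 CPM in the snpc-1.3 libraries at 48 h, against 3207, 2717 and 3071 CPM in wild type. Its log2 fold change was -4.77 (SE 0.39, edgeR adjusted p = 1.29e-19). 21ur-1413, the most reduced of the top 10, had 25.4, 13.3 and 20.5 CPM in snpc-1.3 and 2854, 1651 and 2399 CPM in wild type. The least reduced of the top 10 was 21ur-52 (IV:16902981-16903001, plus strand, outside genes), with 195, 161 and 190 CPM in snpc-1.3 and 2192, 1687 and 1851 CPM in wild type, at a log2 change of -2.87 (SE 0.35, adjusted p by edgeR = 6.4e-12). The other members of the top 10 lay between these, as the plot of the 10 most abundant members shows.

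**Figure D2:**
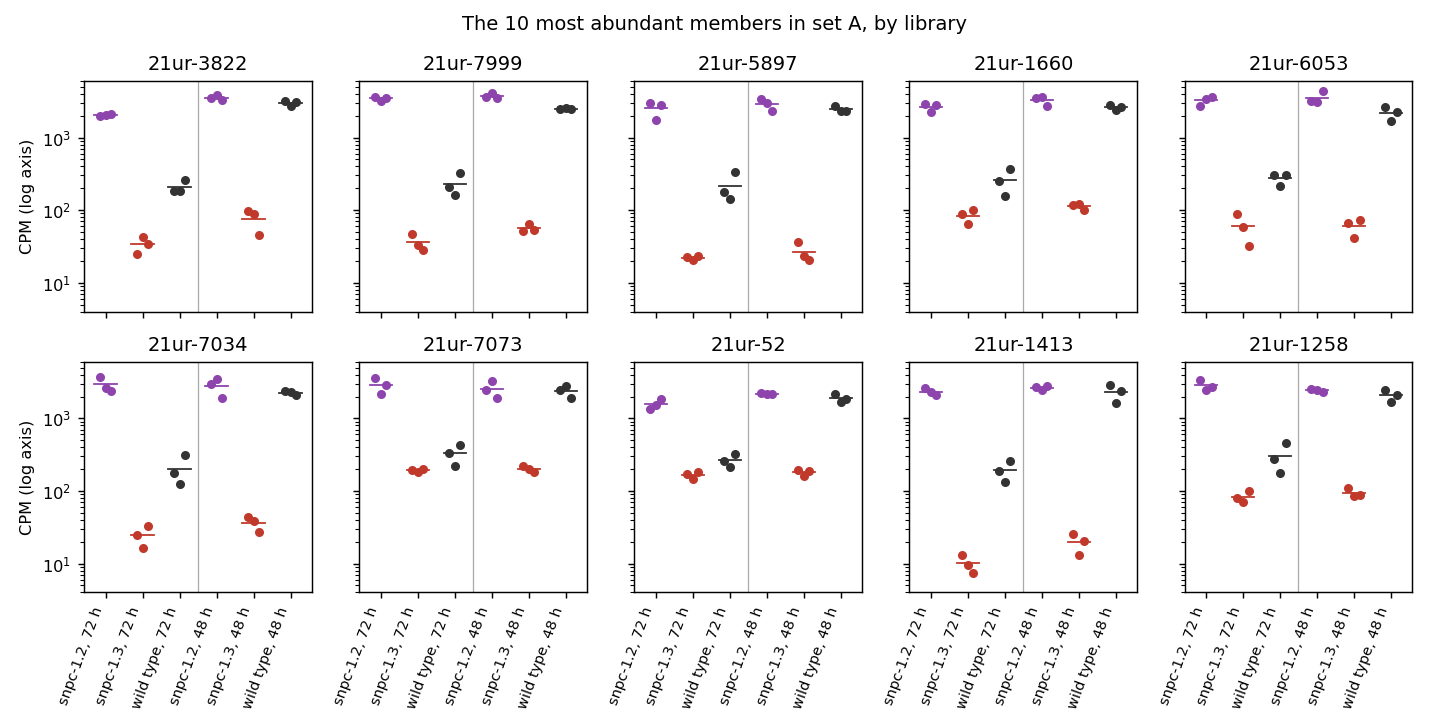
CPM of the 10 most abundant members in the set A libraries, on a log axis, with snpc-1.2 (purple), snpc-1.3 (red) and wild type (black) at 72 h left and at 48 h right. Points are libraries and lines are means of 3. In each panel the snpc-1.3 libraries lie lowest at both ages, and snpc-1.2 at 72 h lies near the 48 h level of wild type.

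Across the members, the CPM left in snpc-1.3 at 48 h ranged from 0.19 to 30.6% of wild type, with a median of 5.52%. There were 12 members under 1%, 36 from 1 to 5%, 33 from 5 to 10%, 15 from 10 to 20% and 4 above 20%. The lowest was 21ur-6528 (IV:15900986-15901006, plus strand, in an intron of Y105C5B.5 and antisense to it), with 3, 3 and 2 counts in snpc-1.3 against 2149, 2276 and 1835 counts in wild type. Its log2 fold change was -8.48 (SE 0.49, edgeR adjusted p = 1.53e-27). The next was 21ur-5880 (IV:16676506-16676526, minus strand, outside genes), with 12, 1 and 6 counts in snpc-1.3 and 1917, 1612 and 1893 counts in wild type. At the other end stood 21ur-3302 (IV:14963727-14963747, plus strand, outside genes), with 241, 186 and 218 CPM in snpc-1.3 and 853, 639 and 612 CPM in wild type, at a log2 change of -1.18 (SE 0.30, adjusted p by edgeR = 0.000314). The most and the least reduced members are shown with their first base in capitals.
21ur-6528: Tggatagtttttttggacact
21ur-5880: Ttttatcgaaggaaacccatt
21ur-3302: Tcggacaggcaagattttgtc

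How much was left went with how strongly a member was biased to larvae. To keep the libraries apart, the bias was taken from set B wild type, which the snpc-1.3 comparison does not use. The 54 members at least 8 times higher at 48 h there kept a median of 2.07% (0.19 to 19.1%) in snpc-1.3 at 48 h, and the 46 members under 8 times kept 9.17% (0.85 to 30.6%). Over the 100 members Spearman's rho of the bias with the percentage left was -0.74. In the mutant lacking both genes at 48 h, with the bias from set A, rho was -0.49, with medians of 16.0% left over the 59 members at 8 times or more and 22.7% over the other 41. In snpc-1.2 at 48 h rho was 0.12, and in mut-16 and hrde-1 at 48 h, with the bias from set A, it was -0.07 and -0.15. These are descriptions over members that share libraries, so no p is given. The wild-type level at 48 h enters both the bias and the percentage left. Set A and set B wild type ranked the members alike at that age (rho 0.92). Taking the bias from the other set therefore does not make these measures independent. A negative rho is in part given by how they are computed. By place, the 93 members of the large cluster kept a median of 5.72% and the 5 of the small cluster 2.74%, with ranges that overlap (0.19 to 30.6% and 1.17 to 19.1%).

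The level left in snpc-1.3 larvae lay below that of wild-type adults for most members. Its rank order over the members had a rho of 0.71 with set A wild type at 72 h, and 94 of 100 members were lower in snpc-1.3 at 48 h than in wild type at 72 h, with medians of 62.2 and 133 CPM. Between snpc-1.3 at 72 h and at 48 h, rho was 0.96.

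**Figure D3:**
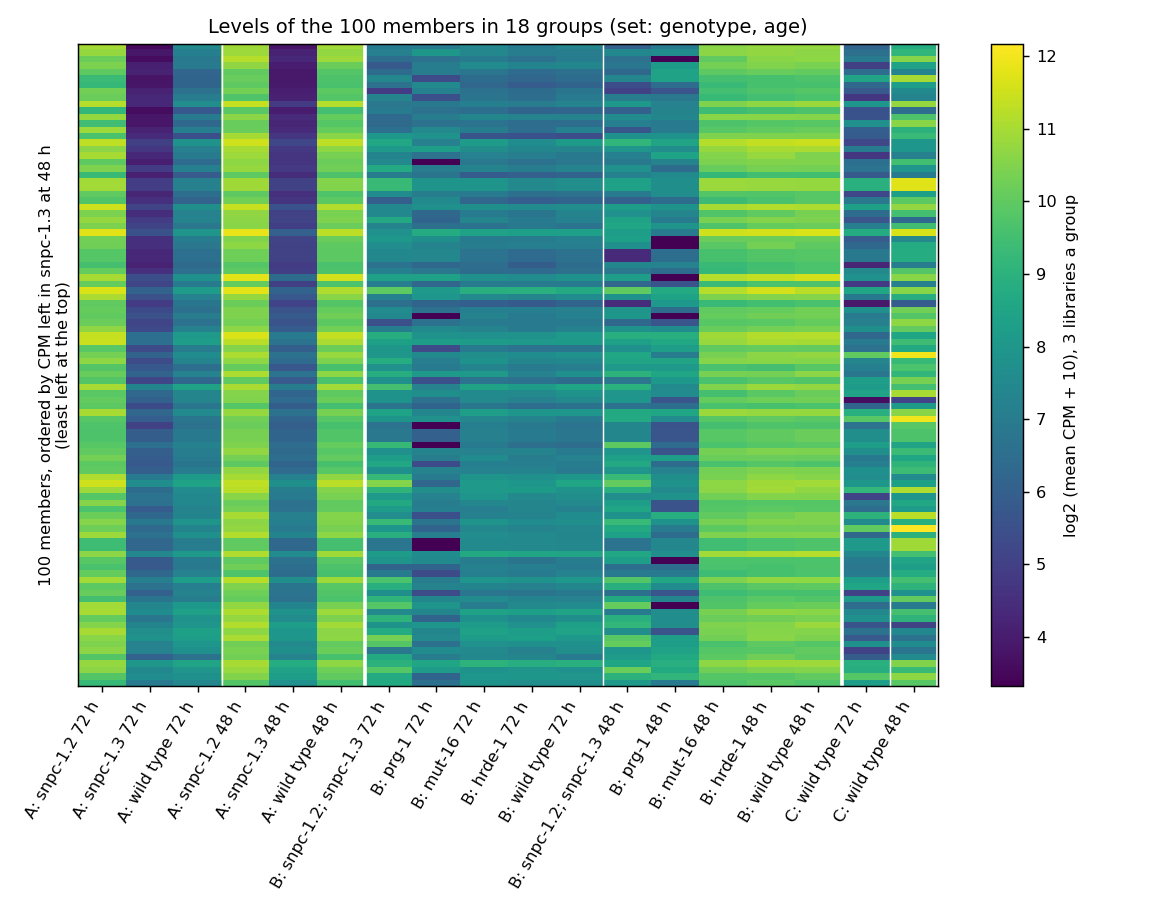
Mean levels of the 100 members in the 18 groups, as log2 of CPM plus 10, with 72 h groups left of 48 h groups in each set and wild type last. Rows are ordered by the CPM left in snpc-1.3 at 48 h as a percentage of wild type, least at the top. This order places the darkest rows of snpc-1.3 at 48 h at the top. At 72 h snpc-1.3 is darkest there too, snpc-1.2 is bright at both ages, and the bright rows of set C wild type at 48 h are not those of sets A and B.

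At 72 h the members stood below their 48 h level in wild type by the rule, and most were lower still in snpc-1.3. edgeR called 63 of 100 members lower in snpc-1.3 adults and 0 higher, against 9.26% of all piRNAs tested called lower. The median log2 fold change was -1.40 over the members and 0 over all piRNAs tested. Their counts summed to 41.3% of wild type, and all piRNA counts to 105%. 21ur-3822 had 25.1, 42.4 and 34.6 CPM in snpc-1.3 and 185, 181 and 264 CPM in wild type, without overlap, at a log2 change of -2.43 (SE 0.38, adjusted p by edgeR = 7.27e-07). 21ur-6528 was the most reduced here too, with 0, 1 and 2 counts in snpc-1.3 against 82, 138 and 163 counts in wild type. 21ur-2592 (IV:16047459-16047479, plus strand, outside genes) had 1, 4 and 0 counts in snpc-1.3 against 46, 107 and 86 counts in wild type. Of the top 10, 21ur-52 and 21ur-7073 were not called. 21ur-52 had 173, 145 and 180 CPM in snpc-1.3 and 260, 215 and 319 CPM in wild type (log2 -0.48, SE 0.33, edgeR adjusted p = 0.51). The snpc-1.3 libraries lay below those of wild type in CPM for 94 members, against 19.0% of all piRNAs tested. With equal library sizes, 37 members and 402 of the 8512 piRNAs tested were called lower, and the members' median was -1.48.

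The fall in snpc-1.3 was smaller at 72 h than at 48 h for most members. The difference of the effects, 72 h minus 48 h, was called higher for 93 members and lower for 0, against 12.9% of all piRNAs tested called higher. This difference contains the change with age in wild type of set A that helped to choose the members, so the count is a description. With members chosen in set B alone, whose libraries take no part in it, 94 of 100 were called. That list shares 95 members with the main one and was chosen by the same change with age in wild type. It is therefore no independent test. The largest differences were those of 21ur-6420 (log2 4.64) and 21ur-7056 (log2 4.08).

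Within snpc-1.3, 1 member was called lower at 72 h than at 48 h and 0 higher, against 0.963% of all piRNAs tested called lower, a share near the background. In CPM the 72 h libraries lay below those at 48 h for 46 members, against 15.7% of all piRNAs tested, and above them for 1. The members' share of the pool was 0.572 to 0.592% in the 72 h libraries and 0.766 to 0.852% in the 48 h libraries. The member called, 21ur-6836 (IV:5931338-5931358, minus strand, in an intron of lin-33 and antisense to it), had 55.5, 50.6 and 70.4 CPM at 72 h and 92.3, 217 and 127 CPM at 48 h. Its log2 fold change was -1.18 (SE 0.33, edgeR adjusted p = 0.030), and it lost its call without any 1 of 5 libraries (edgeR adjusted p 0.052 to 0.458), the exception being replicate 1 at 48 h. The median log2 fold change of the members was -0.33, and 79 of 100 were below 0.

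In snpc-1.2 the members moved the other way, at 72 h. In snpc-1.2 adults 84 of 100 members were higher than in wild type and 0 were lower, against 23.0% of all piRNAs tested called higher. The median log2 fold change was 1.3 over the members and -0.42 over all piRNAs tested. Their counts summed to 243% of wild type while all piRNA counts summed to 25.7%, both as raw counts of libraries whose depth is unknown. The libraries of snpc-1.2 lay above those of wild type in CPM for all 100 members, against 46.0% of all piRNAs tested.

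21ur-7999 had 3638, 3214 and 3514 CPM in snpc-1.2 at 72 h, against 211, 160 and 325 CPM in wild type. Its counts were 562, 427 and 967 in snpc-1.2 and 129, 151 and 206 in wild type, and its log2 fold change was 1.93 (SE 0.36, edgeR adjusted p = 1.68e-06). 21ur-3822 had 1974, 2070 and 2082 CPM in snpc-1.2 and 185, 181 and 264 CPM in wild type (log2 1.3, SE 0.34, edgeR adjusted p = 0.000489). The strongest gain was that of 21ur-6420, with 926, 655 and 774 CPM in snpc-1.2 and 34.4, 25.5 and 42.6 CPM in wild type, at a log2 change of 2.56 (SE 0.40, adjusted p by edgeR = 2.83e-08). 21ur-8445 (IV:5229485-5229505, plus strand, in an intron of thn-6 on its strand), a member of the small cluster, had 2635, 1626 and 1926 CPM in snpc-1.2 and 121, 82.9 and 147 CPM in wild type (log2 2.18, SE 0.34, edgeR adjusted p = 1.98e-08). Of the top 10, 21ur-52 was not called (log2 0.61, SE 0.33, edgeR adjusted p = 0.095). These sequences, of members that gained most, are given with the first base in capitals.
21ur-6420: Ttttttccgtcgtcttggact
21ur-8445: Ttatttaataatggacgcagt

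The size of the gain depended on the scaling, and its direction did not. Scaling by the sum of piRNA counts called 100 members higher with a median of 3.29, where all piRNAs tested had a median of 1.51, and equal library sizes called 42 with a median of 1.37. In CPM the members of snpc-1.2 at 72 h stood where those of wild-type larvae stood, with a median of 1148 CPM against 1138 CPM in set A wild type at 48 h, and a rho of 0.82 over the 100 members. The 54 members with the stronger larval bias in set B wild type reached a median of 1143% of wild type at 72 h. The other 46 reached 722%, with a rho of 0.69 over the 100 members. The wild-type level at 72 h enters both the bias and this percentage, so the rho is in part given by how they are computed.

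**Figure D4:**
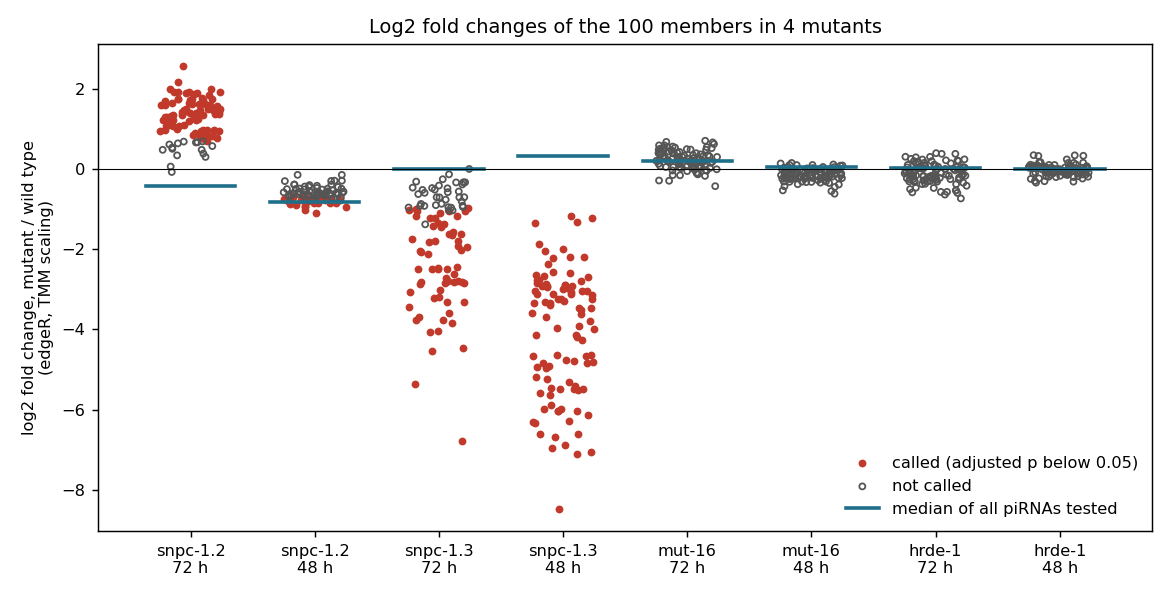
Log2 fold change of each of the 100 members in snpc-1.2, snpc-1.3, mut-16 and hrde-1 against wild type of the same set and age (edgeR, TMM scaling). Filled points are called, open points are not, and the bars are the medians of all piRNAs tested. At 72 h snpc-1.2 members lie above the bar, snpc-1.3 members lie at or below it at both ages, and the points of mut-16 and hrde-1 are all open.

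At 48 h the members held a larger share of the pool in snpc-1.2, with 16.0 to 16.4% against 11.1 to 13.8% in wild type, and the direction of the calls depended on the scaling. In CPM the snpc-1.2 libraries lay above those of wild type for 49 members, against 17.7% of all piRNAs tested, and below them for 0, and the median member was at 127% of wild type. With TMM, 36 of 100 members were called lower and 0 higher, against 43.5% of all piRNAs tested called lower, a share near the background. The median log2 fold change was -0.65 over the members and -0.83 over all piRNAs tested. Same-numbered libraries varied together here, and with the replicate number as a block 64 members were called lower. Scaling by the sum of piRNA counts called 6 members higher and 0 lower with a median of 0.35, where 264 of the 8512 piRNAs tested were higher and 2223 lower. DESeq2 size factors called 26 members higher and 0 lower, where 783 piRNAs were higher and 2063 lower, and the fit of these groups alone called 0. Without snpc-1.2 replicate 3, 0 members were called, without replicate 1 of snpc-1.2 16, and without wild type replicate 1 or 3 it was 8 or 9. In counts the members were at 82.2% of wild type and all piRNAs at 64.2%. 21ur-801 (IV:15612597-15612617, plus strand, antisense to an exon of Y105C5A.8) had 1901, 1465 and 1300 counts in snpc-1.2 and 2121, 2072 and 2032 in wild type, and its CPM were 2388, 2197 and 2176 in snpc-1.2 and 2018, 1773 and 2050 in wild type. Thus its counts were lower and its part of the pool higher, and its log2 change was -0.78 with TMM (SE 0.31, edgeR adjusted p = 0.032) and 0.21 with the sum. The TMM call was lost without replicate 2 or 3 of snpc-1.2 or replicate 1 or 3 of wild type (edgeR adjusted p up to 0.924).

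Between the ages within snpc-1.2, 47 members were called lower at 72 h than at 48 h and 0 higher, against 14.8% of all piRNAs tested called lower. The median was -0.79 over the members and -0.49 over all piRNAs tested. With the sum of piRNA counts 7 were called, with equal library sizes 97, and without snpc-1.2 replicate 1 or 2 at 72 h or replicate 3 at 48 h it was 22, 29 or 25. 21ur-6420 had 926, 655 and 774 CPM at 72 h and 2132, 1351 and 2586 CPM at 48 h (log2 -1.88, SE 0.35, edgeR adjusted p = 2.22e-05). For snpc-1.2, the effect at 72 h minus that at 48 h was called higher for 92 members and lower for 0. Of all piRNAs tested, 22.1% were called higher. For members chosen in set B alone the count was 92 of 100. Both lists were chosen by the change with age in wild type, which is part of this difference, so these counts are descriptions. With equal library sizes the difference was called for 0 members and for 0 of the 8512 piRNAs tested. Its median over the members was then 1.69, against 1.96 with TMM.

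Set against each other directly, snpc-1.3 had less of nearly every member than snpc-1.2. At 72 h 96 members were lower in snpc-1.3 and 0 higher, against 32.2% of all piRNAs tested called lower, and the median log2 change was -2.82 over the members and 0.36 over all piRNAs tested. At 48 h 98 were lower and 0 higher, against 35.3%, with a median of -3.03 over the members and 1.02 over all piRNAs tested. 21ur-6528 had 0, 1 and 2 counts in snpc-1.3 at 72 h against 321, 300 and 464 in snpc-1.2, and 3, 3 and 2 counts in snpc-1.3 at 48 h against 1303, 1640 and 979 in snpc-1.2.

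In the mutant lacking both genes the piRNA counts summed to a small part of those of wild type. Its members had 0.667% of the counts of wild type at 48 h, where all piRNAs had 2.83%, and 6.53% at 72 h, where all piRNAs had 3.52%. At 48 h edgeR called 100 members lower and 0 higher, against 47.6% of all piRNAs tested called lower. The median log2 fold change was -3.87 over the members and -3.93 over all piRNAs tested, so the larger share called does not mean a larger fall. These medians were -2.49 and -3.01 with the sum of piRNA counts, and -3.20 and -1.4 with DESeq2. Which of them fell more thus depended on the method. The median member had 18.3% of its wild-type CPM. With members chosen in set A alone, 99 were called lower and 0 higher. 21ur-2555 and novel_21ur-1319, which repeat each other, had 1, 0 and 0 counts in the mutant and 797, 667 and 869 in wild type.

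At 72 h the direction in the mutant lacking both genes depended on the scaling. TMM called 67 members lower and 1 higher, against 39.7% and 7.88% of all piRNAs tested, while scaling by the sum of piRNA counts called 31 members higher and 0 lower, where 1467 of the 8512 piRNAs tested were higher and 1396 lower. The median log2 fold change with TMM was -1.39 over the members and -3.26 over all piRNAs tested, and with the sum it was 0.62 and -2.38. The members' median thus lay above that of all piRNAs tested under both. With DESeq2 the medians were closer, at -0.10 over the members and -0.20 over all piRNAs tested. In counts, 0 of 100 members were above wild type. The member called higher, 21ur-7968, had 19, 25 and 8 counts in the mutant and 61, 91 and 43 in wild type, which are 783, 732 and 294 CPM in the mutant and 87.1, 93.1 and 57.0 CPM in wild type. Its log2 fold change was 0.91 (SE 0.39, edgeR adjusted p = 0.049), it was -1.90 with equal library sizes, and the call was lost without replicate 1 or 2 of the mutant or replicate 1 or 3 of wild type (edgeR adjusted p up to 0.286). The lowest was 21ur-1964, with 0, 2 and 0 counts in the mutant and 47, 68 and 121 in wild type. 21ur-7756 had 0, 1 and 3 counts in the mutant and 82, 112 and 183 in wild type. Between the ages, 0 members were called in the mutant lacking both genes (5 at an unadjusted p below 0.05, and 0 with DESeq2), against 1.01% of all piRNAs tested. The effect at 72 h minus that at 48 h was called higher for 56 members and lower for 0. Of all piRNAs tested, 2.53% were called higher. Without replicate 2 or 3 of the mutant at 72 h the count of members was 35 or 37. This difference contains the change with age in set B wild type that helped to choose the members, so the count is a description.

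The prg-1 libraries kept few piRNA counts of any kind. The members had 91, 117 and 137 counts in the 72 h libraries of prg-1, against 10030, 14096 and 15662 in wild type. At 48 h they had 159, 48 and 170 counts in prg-1, against 109839, 108318 and 121094 in wild type. These are 0.867% of wild type at 72 h and 0.111% at 48 h, where all piRNA counts were 1.09% and 0.779%. At 72 h 6 members and at 48 h 7 members had 0 counts in all 3 libraries of prg-1, among them 21ur-3822 at 48 h, with 2524, 2802 and 2738 counts in wild type. The member with the most counts left at 48 h was 21ur-5227 (IV:14495919-14495939, plus strand, in an intron of tag-273 and antisense to it), with 3, 0 and 9 counts in prg-1 and 1631, 1523 and 1713 in wild type.

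edgeR called 45 members lower in prg-1 at 72 h and 0 higher, against 20.2% of all piRNAs tested called lower, and 100 lower at 48 h, against 23.8%. At 72 h the count was 0 with the sum of piRNA counts and 100 with equal library sizes, and without prg-1 replicate 1 it was 29. No fitted fold of single members is given for these comparisons, because groups at 0 have none. With TMM the median log2 fold change at 72 h was -1.93 over the members and -4.72 over all piRNAs tested. At 48 h these medians were -4.46 and -5.11, so the larger share of members called does not mean a larger fall. With DESeq2 they were 0.39 and 1.65 at 72 h and -2.60 and 0.89 at 48 h. Which of them fell more thus depended on the method. Within prg-1, 0 members were called between the ages (9 at an unadjusted p below 0.05, and 0 with DESeq2), against 0.129% of all piRNAs tested called in either direction.

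The members of mut-16 and hrde-1 were not called against wild type in any of the 4 comparisons. In mut-16 at 72 h 0 of 100 were called (3 at an unadjusted p below 0.05, and 0 with DESeq2), against 7.84% of all piRNAs tested, and at 48 h 0 (0 at an unadjusted p below 0.05, and 0 with DESeq2), against 4.21%. In hrde-1 at 72 h 0 were called (1 at an unadjusted p below 0.05, and 0 with DESeq2), against 1.41%, and at 48 h 0 (0 at an unadjusted p below 0.05, and 0 with DESeq2), against 0.811%. The log2 fold changes of the members ran from -0.43 to 0.70 in mut-16 at 72 h and from -0.62 to 0.15 at 48 h. Their median in mut-16 was 0.22 at 72 h, against 0.19 over all piRNAs tested. At 48 h it was -0.16, against 0.05, with 83 members below 0 and 17 above. In hrde-1 the members' log2 fold changes ran from -0.74 to 0.39 at 72 h and from -0.34 to 0.34 at 48 h. Their medians there were -0.16 and -0.04, against 0.02 and -0.01 over all piRNAs tested. In counts the members of mut-16 were at 244% of wild type at 72 h and 119% at 48 h, as the whole piRNA pool was at 236% and 137%.

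Both mutants kept the larval bias of the members. All 100 were lower at 72 h than at 48 h in mut-16, against 38.2% of all piRNAs tested called lower, and their median log2 change was -2.15. All 100 were also lower in hrde-1, against 38.3%, with a median of -2.58. 21ur-6420 had 35.6, 36.9 and 43.8 CPM in mut-16 at 72 h and 1076, 1961 and 1151 CPM at 48 h, at a log2 change of -4.48 (SE 0.40, adjusted p by edgeR = 1.54e-15). In hrde-1 it had 38.3, 38.0 and 33.0 CPM at 72 h and 1223, 1640 and 1306 CPM at 48 h, at a log2 change of -4.67 (SE 0.41, adjusted p by edgeR = 4.85e-16). These libraries took no part in the choice of the members, and both ages of a mutant were compared with each other, so wild type does not enter.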

How the data were processed

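The deposited count table holds raw counts per piRNA, per the file headers, for 17114 piRNAs, and the authors' second table holds batch-corrected log2 CPM for 13211 piRNAs, per the file headers. From the second table the sequences and coordinates were taken, and its log2 values were not tested. The submitters' processing notes name Trimmomatic 0.39, Bowtie 1.1.1, HTSeq, edgeR and the WBcel235 build, without roles. Strand handling in the counting is not given in the sources used here. The 12 columns that match no sample were not used, and 12 samples of set C mutants were not analysed here.

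The members and lists were chosen with earlier results of these data known. CPM were computed from the counts. Tests used edgeR 4.0.16 (glmQLFit and glmQLFTest in R 4.3.3, TMM, robust, filterByExpr with a minimum count of 10 and total of 15), with 1 mean per set, genotype and age over 54 libraries, which is the design written for 66 samples. The edgeR test was run on simulated counts of 2 groups at a time, with equally many piRNAs raised and lowered. That run does not cover the design over all 54 libraries or a loss of most piRNAs. Printed fold changes are shrunken, and each SE was derived from the unshrunken one and its F statistic. Alternatives were other scalings, DESeq2 1.42.0, filters, member lists, a replicate block and leaving out each library. Members named are the top 10, the 2 with the largest called change in each direction of a comparison with no overlap of libraries, the few called in a rarer direction, the least reduced in snpc-1.3 and the one with the most counts left in prg-1 at 48 h, and those at the limits of the rule. Members named for levels in set C or shared reads, and other members named outside these rules, were chosen after their values were seen. Same-numbered libraries of the groups compared varied together, with every correlation above 0.1, for snpc-1.2 at 48 h, snpc-1.3 at 72 h, mut-16 at 48 h and hrde-1 at both ages. No genome was used, so sequence upstream of the members was not searched.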

Additional observations from a re-analysis of the deposited data

Results flagged for a closer look

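The effect of a mutation differed between 72 h and 48 h by edgeR's test of the difference for 92 members in snpc-1.2, for 93 in snpc-1.3 and for 56 in the mutant lacking both genes, each with the effect at 72 h the higher. The change with age in wild type, by which the members were chosen, is part of each difference. With members chosen in the set whose libraries the difference does not use, the counts were 92, 94 and 55. Each of those lists shares 95 members with the main one and was chosen by the same change with age. The counts are therefore no independent test.

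In snpc-1.2 the largest differences were those of 21ur-6420 (log2 3.20) and 21ur-290 (log2 2.82). In snpc-1.3 they were those of 21ur-6420 (log2 4.64) and 21ur-7056 (log2 4.08). In the mutant lacking both genes they were those of 21ur-2555 (log2 6.11) and novel_21ur-1319 (log2 6.11), which repeat each other and rest on 1, 0 and 0 counts in the mutant at 48 h.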

How the results depend on the processing

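In snpc-1.3 at 48 h all 100 members were called lower under every alternative run. In mut-16 and hrde-1 against wild type at both ages, and between the ages in prg-1 and in the mutant lacking both genes, 0 were called under each scaling, and between the ages in hrde-1 100 were. Other counts moved with the scaling, as did the median of all piRNAs tested, which in snpc-1.2 at 72 h was -0.42 with TMM and 1.51 with the sum of piRNA counts. In snpc-1.2 at 48 h the 36 lower calls gave way to 6 higher with the sum, 26 higher with DESeq2 size factors and 31 higher with DESeq2, and the lower calls were 16 with TMMwsp, 0 with equal library sizes, 64 without the filter, 64 with the replicate block and 0 in the compared groups alone. Equal library sizes gave 42 in snpc-1.2 and 37 in snpc-1.3 at 72 h. The mutant lacking both genes at 72 h had 68 calls, and 31 with the sum, 26 with DESeq2 size factors, 40 with TMMwsp and 24 with DESeq2. For prg-1 DESeq2 gave 65 at 48 h, and at 72 h, where TMM gave 45, there were 18 over the members at least 8 times higher at 48 h, 0 with the sum and with DESeq2 size factors, 2 with TMMwsp, 100 with equal sizes, 18 without the filter, 8, all higher, with DESeq2, and 5 in the compared groups alone.

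Between the ages, snpc-1.2 had 7 calls with the sum, 72 with DESeq2 size factors, 97 with equal sizes and 11 in the compared groups alone. The snpc-1.3 count of 1 became 8 with the sum, 2 with DESeq2 size factors, 0 with equal sizes and without the filter, 2 with the replicate block, 2 with DESeq2 and 11 alone, and that of the mutant lacking both genes became 1 alone. The fit of prg-1 alone gave no value, as 0 members passed its filter. The difference between ages was called for 0 members in snpc-1.2 with equal sizes, as for 0 of all piRNAs tested, with a median of 1.69 over the members, and in the mutant lacking both genes for 88 with the sum, 87 with DESeq2 size factors, 34 with equal sizes and 93 with DESeq2. The replicate block changed no other count by over 1.5 times. The cause of these shifts was not tested.

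Among named members, log2 fold changes with the sum, DESeq2 size factors and DESeq2 were 0.21, 0.50 and 0.50 for 21ur-801 and 0.23, 0.53 and 0.53 for 21ur-2034 in snpc-1.2 at 48 h, and that of 21ur-7968 was -1.90 with equal sizes.

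Over the members at least 8 times higher at 48 h, the share at 72 h and 48 h was 10.6% and 13.1% in snpc-1.2, 0.199% and 0.307% in snpc-1.3, and 0.940% and 10.2% in set A wild type. It was 1.61% and 1.71% in the mutant lacking both genes, 1.03% and 1.42% in prg-1, 1.1% and 9.28% in mut-16, 0.926% and 10.3% in hrde-1, 1.01% and 10.5% in set B wild type, and 7.16% at 48 h in set C. With members chosen in the other set it was 0.605% in snpc-1.3 at 72 h, and 3.19% and 3.32% in the mutant lacking both genes.

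Leaving out 1 library at a time gave 97 to 100 calls in set C, 70 to 88 in snpc-1.2 at 72 h and 0 to 46 at 48 h, 50 to 64 in snpc-1.3 at 72 h, 48 to 68 and 98 to 100 in the mutant lacking both genes at 72 h and 48 h, and 29 to 52 in prg-1 at 72 h. Between the ages it gave 22 to 47 in snpc-1.2 and 0 to 1 in snpc-1.3. The differences between ages had 80 to 98, 89 to 95 and 35 to 64 calls in snpc-1.2, snpc-1.3 and the mutant lacking both genes. For snpc-1.3 against snpc-1.2 there were 93 to 97 at 72 h and 96 to 100 at 48 h. The few counts a member has in prg-1 and in the mutant lacking both genes limit what can be told there.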
